A study of Mus musculus with 9 samples.

Results

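Forkhead (Fox) genes encode transcription factors that share a winged-helix DNA-binding domain and are sorted into subfamilies by the letter that follows Fox in the symbol. The genes described here are the protein-coding genes of the GENCODE M21 annotation (Ensembl release 96) with a symbol from the FoxA to FoxS subfamilies, with *Foxl2* and *Foxm1* left out. There were 42 such genes in 18 subfamilies, of 55450 genes in the counts. Of these, 28 passed the filter on low counts (mean of 5 or more) and were tested between the stages, as part of 19371 genes in all.

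The study profiled the developing and the mature mouse pituitary by bulk RNA sequencing, as part of a description of imprinted genes in this gland. The embryo group held Rathke's pouch, the epithelial primordium of the anterior pituitary, from 7 embryos at embryonic day 13.5 that carried Egfp at 1 allele of *Sox2* (Sox2Egfp/+). The adult group held the pituitary of 2 mice at postnatal week 8 after removal of the posterior lobe, and no reporter allele is named for it. The reporter allele and the stage therefore cannot be told apart. Both groups were on a mixed 129Sv/c57BL6J background, and each library came from a separate animal. The study's methods place males and females in each group, but nothing used here gives the sex or a batch of a library. Poly(A) RNA with a high integrity number was made into directional libraries and sequenced as paired ends.

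Read pairs counted on genes numbered 16738863, 28537311, 24816013, 18825731, 24687556, 22393725 and 25755469 in embryos 1 to 7, and 36421545 and 31191117 in adults 1 and 2. Embryos 1 and 4 stood apart in the share of pairs counted, before any forkhead gene was considered. Their counted pairs made up 59.7% and 62.8% of all pairs, where every other embryo had at least 73.9% and the adults had 84.0% and 83.7%. Pairs that aligned to several places reached 21.7% and 26.1% in embryos 1 and 4. They ranged over 14.1% to 19.7% across the remaining 5 (19.7% being embryo 6), while adults 1 and 2 had 7.16% and 7.52%. Fits without these embryos are given for part of the results below. Since the adults had the highest counted shares, this measure and stage cannot be told apart.

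Forkhead proteins are known for building tissues of mesodermal and neural crest origin (FoxC, FoxD, FoxF, FoxL), for switching on the motile cilium programme (*Foxj1*) and for answering insulin and growth factor signals (FoxO). FoxO proteins are kept out of the nucleus when the kinase Akt phosphorylates them, and enter it to activate genes of cell cycle arrest, stress defence and catabolism when that signal is low. In the pituitary, FOXO1 is known as a repressor of gonadotropin subunit genes.

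The tissue labels were checked on 20 genes of the pouch and the gland. A gene was called when its adjusted p in edgeR's quasi-likelihood test (Benjamini-Hochberg adjustment over all tested genes) was below 0.05 and its fold change was above 4. Of the 20 genes, 3 were called higher in the embryo and 9 in the adult, with a median log2 fold change (embryo over adult throughout) of −0.67 against −0.04 for all tested genes. *Hesx1*, a repressor of the early pouch, was at 0.339 and 0.562 CPM (with library sizes adjusted by TMM) in the adults and at 11.0 to 40.4 CPM in the embryos. *Gh*, which encodes growth hormone, had the highest mean of the list in the adults. It was at 53470 and 63850 CPM in the adults and at 0.0362 to 1.91 CPM in the embryos. The embryos summed to 1961 to 3264 CPM over the list and the adults to 153600 and 161100 CPM. *Prl*, for prolactin, was at 62120 and 29390 CPM in the adults (log2 fold change −17.19), and *Lhx4*, a homeobox gene of the pouch, had one of 4.29. *Sox2*, the gene of the reporter allele, was at 26.5 to 44.8 CPM in the embryos and at 64.08 and 56.85 CPM in the adults. It was not called (−0.70, edgeR adjusted p = 0.0282). *Six3* was also lower in every embryo (−0.59, edgeR adjusted p = 0.102) and *Pitx1* higher in every embryo (1.7, edgeR adjusted p = 0.00304), both uncalled.

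The mean level was at least 1 CPM for 23 forkhead genes in the embryos and for 18 in the adults, and the 18 were all among the 23. At a mean of 10 CPM or more there were 16 genes in the embryos and 14 in the adults. No pair was counted for 5 genes in any embryo, for 8 genes in either adult, and for *Foxb2*, *Foxi3* and *Foxr1* in any library. The 14 genes that were not tested summed to at most 21 counts over the 9 libraries, and the highest level of any of them in a library was 0.733 CPM (*Foxh1*, embryo 1).

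Levels of different genes were compared as CPM per kb of exon. In the embryos the order began with *Foxo4* (14.6 ± 3.05, SD, n = 7), *Foxp4* (14.6 ± 4.74), *Foxk2* (13.5 ± 3.33), *Foxf2* (10.7 ± 3.51) and *Foxl1* (8.32 ± 1.92). These neighbours in the order differed by less than their spread. In the adults it began with *Foxk2* (15.8 ± 2.21, SD, n = 2), *Foxo1* (10.0 ± 0.601), *Foxo4* (8.81 ± 1.32), *Foxo3* (8.14 ± 0.545) and *Foxp4* (6.85 ± 0.181). Of these, *Foxk2* and *Foxo1* differed by more than their spread, as did *Foxo3* and *Foxp4*, and the other neighbours did not. *Foxl1* moved from rank 5 of 42 in the embryos to rank 20 in the adults, and *Foxf2* moved from rank 4 to rank 17. *Foxo1* was at rank 12 in the embryos and rank 2 in the adults. Summed over the family, the level was 121 ± 24.0 CPM per kb in the embryos and 91.7 ± 7.35 in the adults, with overlapping libraries (85.3 to 155 against 86.5 and 96.9).

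**Figure D1:**
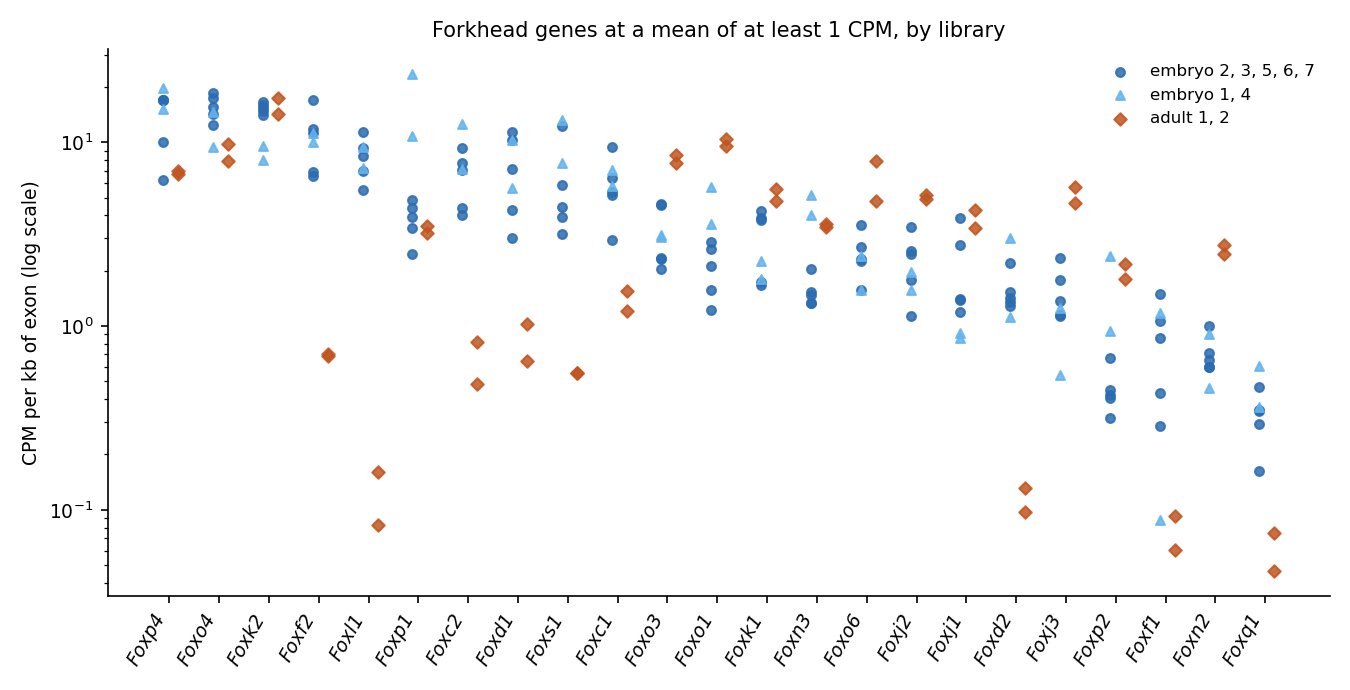
Level of each of the 23 forkhead genes with a mean of at least 1 CPM in either group, in CPM per kb of exon on a log axis, with 1 point per library (embryos 1 and 4 as triangles, the other embryos as circles, adults as diamonds). *Foxl1* lay between 0.0832 and 0.161 CPM per kb in the adults and between 5.51 and 11.3 in the embryos, whereas *Foxk2* overlapped between the groups.

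Of the 28 tested forkhead genes, 10 were called, all of them higher in the embryo. Among all 19371 tested genes 25.8% were called, 11.3% higher in the embryo and 14.6% higher in the adult. The 10 called genes came from 6 subfamilies: FoxC (2 of 2 tested), FoxD (3 of 3), FoxF (2 of 2), and the lone genes of FoxL, FoxQ and FoxS. In FoxJ, FoxK, FoxN, FoxO and FoxP, 14 genes were tested and none was called by edgeR. The count higher in the adult was 0 in edgeR and 0 in DESeq2, with 10 forkhead genes at an unadjusted p under 0.05 in that direction. The share of all tested genes at that unadjusted p was not computed. It is at least the 27.4% that had an adjusted p below 0.05 toward the adult. Without a threshold on fold, 12 forkhead genes had an adjusted p below 0.05 toward the embryo and 6 toward the adult, where 51.4% of all tested genes passed (24% toward the embryo, 27.4% toward the adult). All 7 embryos lay above both adults for 8 forkhead genes and below both for 7, which was the case for 26.2% and 32.9% of all tested genes. The median log2 fold change of the 28 genes was 0.35, against −0.04 for all tested genes. It was −0.25 without embryo 2 (27 genes tested), 0.83 without adult 1 (26 tested) and 0.88 without adult 2 (27 tested). Each of these samples is a mixture of cell types, so fewer cells of a type and less RNA per cell cannot be told apart in any of these differences.

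Without embryos 1 and 4, the same 10 genes were called higher in the embryo (11.5% of 19508 tested genes), and 3 forkhead genes, with *Foxo1* and *Foxp2* among them, were called higher in the adult (16.2% of tested genes). With each library corrected for transcript length and GC content, those 10 genes and *Foxp1* were called higher in the embryo and none higher in the adult, where 8.63% and 12.3% of all tested genes were called. When library size alone replaced TMM, the median of all tested genes moved from −0.04 to −0.26, and *Foxj3*, *Foxn2* and *Foxo1* were among 4 forkhead genes called higher in the adult (16.8% of all tested genes). Leaving out an adult library lowered the count toward the embryo to 7 (without adult 1, with 8.51% of all tested genes called toward the embryo) and to 6 (without adult 2, with 7.77%).

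Among the called genes with counts in the adults, *Foxl1* had the largest log2 fold change. *Foxl1*, a factor of the mesenchyme under the gut epithelium, was at 0.436 and 0.225 CPM in the adults and at 14.9, 22.8 and 30.7 CPM (lowest, median, highest) in the embryos. Every embryo was far above both adults, with no library between the groups. The embryo level was 66.5-fold higher (log2 fold change 6.06, SE 0.50, edgeR adjusted p = 8.8e-07), and the log2 fold change lay between 5.66 and 6.59 with any library left out.

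*Foxf1* and *Foxf2* act in the mesenchyme of gut, lung and palate, and *Foxf2* also in the pericytes of brain vessels. *Foxf2* was at 1.67 and 1.63 CPM in the adults and at 15.4, 26.5 and 40.1 CPM in the embryos. The groups were well apart, with embryo 2 the highest and embryo 6 the lowest of the embryos. The difference was 15.2-fold (3.93, SE 0.46, edgeR adjusted p = 1.4e-05). *Foxf1* was far less abundant, at 0.146 and 0.225 CPM in the adults and 0.212, 2.09 and 3.62 CPM in the embryos. Embryo 4 lay within the range of the adults, on 3 counts, so the groups overlapped. *Foxf1* was called (3.31, SE 1.03, edgeR adjusted p = 0.0149), also without embryos 1 and 4 (3.44, adjusted p = 0.00255), but not without adult 1 (3.01, adjusted p = 0.12) or without adult 2 (3.63, adjusted p = 0.0795). *Foxf2* supplied 93.7% of the FoxF level in the embryos, against 92.2% and 88.1% in the adults.

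*Foxc1* and *Foxc2* act in somites, in the periocular mesenchyme and in blood and lymphatic vessels. *Foxc2* was at 2.23 and 1.32 CPM in the adults and at 11.0, 19.5 and 34.4 CPM in the embryos, all of which were above the adults. The log2 difference came to 3.51 (SE 0.52, edgeR adjusted p = 1.0e-04). *Foxc1* was at 9.09 and 7.06 CPM in the adults and at 17.1, 33.7 and 54.8 CPM in the embryos. The groups did not overlap, but the lowest embryo (embryo 3) was closer to the adults than for *Foxc2*. The *Foxc1* fold change of 4.36 was just above the threshold (2.12, SE 0.40, edgeR adjusted p = 6.7e-04). It was below it without embryo 7 (1.98, adjusted p = 6.1e-04), without adult 2 (1.94, adjusted p = 0.0204) and when library size alone replaced TMM (1.93, adjusted p = 0.00491). After the length and GC correction the *Foxc1* log2 fold change was 2.85 (edgeR adjusted p = 1.1e-04), well above the threshold. *Foxc1* made up 45.2% of the FoxC level in the embryos (35.96% to 56.20%, with the larger share in embryos 6 and 7), against 65.5% and 71.4% in the adults. The shares were not tested.

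*Foxd1* marks the stroma of the kidney and the temporal retina. It was at 5.16 and 3.26 CPM in the adults and at 15.3, 36.4 and 57.3 CPM in the embryos. All embryos were above both adults, with embryo 3 the lowest and embryo 2 the highest. The difference was 8.94-fold (3.16, SE 0.54, edgeR adjusted p = 3.3e-04). *Foxd2*, a related gene of kidney mesenchyme, was at 0.339 and 0.253 CPM in the adults and at 2.89, 3.69 and 7.84 CPM in the embryos, again without overlap (3.87, SE 0.63, edgeR adjusted p = 2.2e-04). *Foxd3*, a neural crest specifier, had no count in either adult and 0, 36, 2, 3, 1, 8 and 27 counts in embryos 1 to 7. Most of its 77 counts thus came from embryos 2 and 7, and the groups overlapped at 0. The mean embryo level was at least 4.76-fold higher than 3 counts in the shallower adult library, a floor that covers counting error only. *Foxd3* was called with an edgeR adjusted p of 0.0264, and it was not called without adult 1 (adjusted p = 0.131), without adult 2 (adjusted p = 0.125) or with unstranded counts (adjusted p = 0.0928). *Foxd4* had 1 count, in adult 2.

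*Foxs1*, known from pericytes and vascular smooth muscle, was at 0.727 and 0.731 CPM in the adults and at 4.13, 7.72 and 17.3 CPM in the embryos. Embryos 1 and 2 were the highest, and the lowest embryo still lay well above the adults. For *Foxs1* the log2 fold change was 3.68 (SE 0.68, edgeR adjusted p = 5.3e-04), 2.61 after the length and GC correction and 3.42 without embryos 1 and 4. *Foxq1*, a gene of hair shaft differentiation, was at 0.364 and 0.225 CPM in the adults and at 0.792, 1.70 and 2.93 CPM in the embryos. The groups were apart by a narrow margin. Its call (2.58, SE 0.72, edgeR adjusted p = 0.00823) was lost without adult 1 (2.94, adjusted p = 0.0516) and without adult 2 (2.27, adjusted p = 0.105). Exons of A530084C06Rik on the opposite strand cover 66.1% of the *Foxq1* exons, and with unstranded counts the *Foxq1* log2 fold change was 3.59.

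In summed CPM per kb, FoxF had a level of 11.4 ± 3.94 (SD, n = 7) in the embryos and 0.776 ± 0.0106 (SD, n = 2) in the adults. FoxC was at 13.5 ± 4.29 and 2.03 ± 0.482, FoxD at 9.33 ± 3.82 and 0.953 ± 0.279, and FoxS at 7.21 ± 4.03 and 0.556 ± 0.00198. In each of these subfamilies every embryo was above both adults. The sums were not tested.

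**Figure D2:**
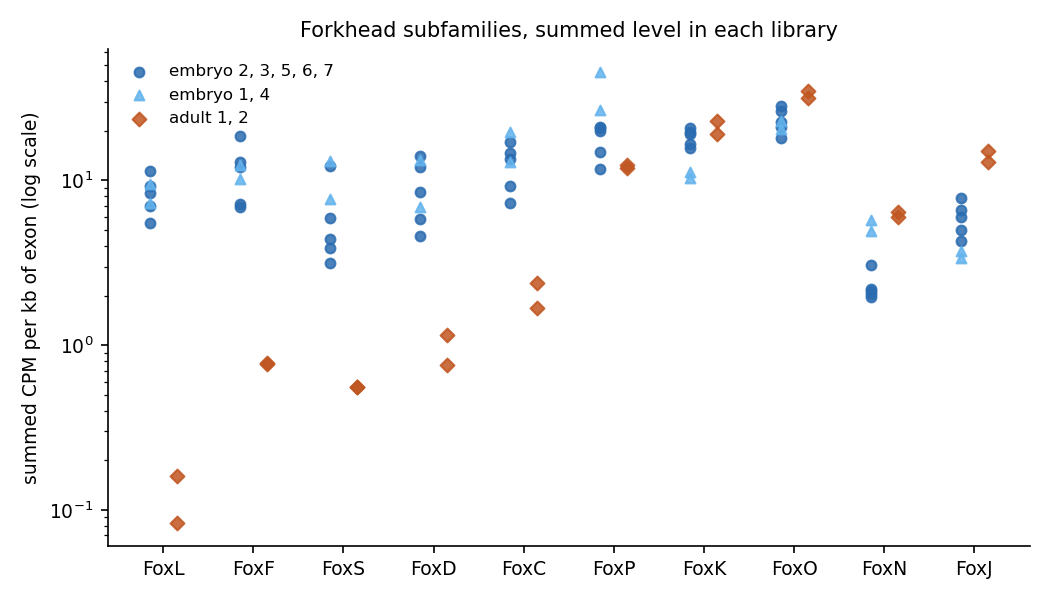
Summed level of each forkhead subfamily with a mean of at least 1 CPM per kb in either group, by library, on a log axis (embryos 1 and 4 as triangles, the other embryos as circles, adults as diamonds). Subfamilies run from the highest embryo over adult ratio (FoxL, 68.1) to the lowest (FoxJ, 0.375), and the libraries of the groups overlap for FoxP and FoxK.

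Several of the called genes are neighbours in the genome (GRCm38). *Foxf1* (chromosome 8, 121084386 to 121088144), *Foxc2* (121116171 to 121118895) and *Foxl1* (121127940 to 121130644) lie within 46.3 kb, on the plus strand. *Mthfsd*, a folate metabolism gene on the minus strand between *Foxf1* and *Foxc2*, was at 26.1 and 27.0 CPM in the adults and at 29.0 to 53.6 CPM in the embryos and was not called (0.62, edgeR adjusted p = 0.083, and 1.84 after the length and GC correction). *Irf8*, the nearest protein-coding gene upstream, was not called either (0.71, edgeR adjusted p = 0.0992, and 0.67 after the correction). The 3 forkhead genes had larger log2 fold changes than both, before and after the correction, where *Foxf1* was at 2.83.

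On chromosome 13, *Foxq1* (31556134 to 31560976), *Foxf2* (31625816 to 31631403) and *Foxc1* (31806633 to 31812476) lie within 256 kb on the plus strand. A noncoding RNA gene between *Foxq1* and *Foxf2*, 1700018A04Rik, was at 0.146 and 0 CPM in the adults and at 1.93 to 6.30 CPM in the embryos. It was called higher in the embryo (5.36, edgeR adjusted p = 5.9e-04), as was A530084C06Rik (4.05, SE 0.98, edgeR adjusted p = 0.00355). *Gmds*, a GDP-mannose dehydratase gene that follows *Foxc1*, was at 26.3 and 20.2 CPM in the adults and 34.1 to 48.1 CPM in the embryos and was not called (0.83, edgeR adjusted p = 0.0176). On chromosome 4, the noncoding gene *Foxd2os* next to *Foxd2* was called (3.84, SE 0.59, edgeR adjusted p = 1.4e-04), whereas *Cmpk1* on the other side of *Foxe3* was not (−0.11, edgeR adjusted p = 0.75, and 0.59 after the length and GC correction). 1700018A04Rik, A530084C06Rik and *Gmds* lie on the minus strand and *Foxd2os* on the plus strand. Each is opposite to the forkhead genes beside it, and the counts were made by strand. Pairs from a gene and from an unannotated extension of a neighbour on the same strand cannot be told apart in counts per gene.

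**Figure D3:**
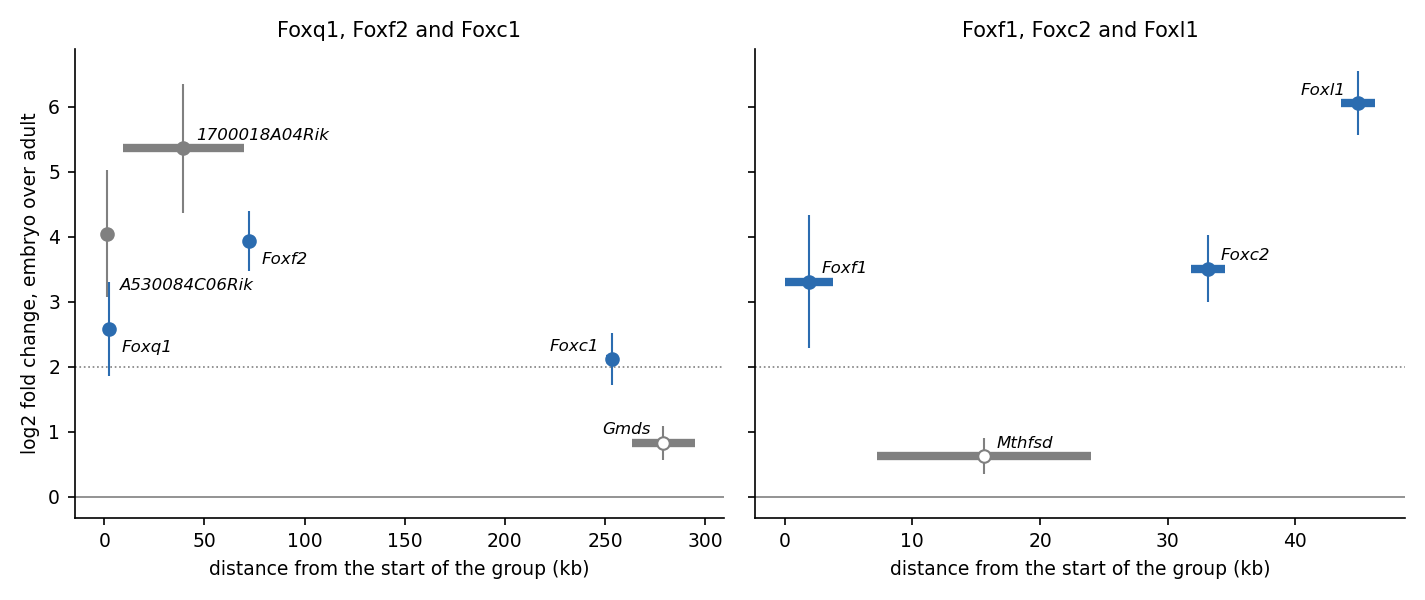
Log2 fold change (embryo over adult, vertical axis, bars give the standard error) of tested genes against distance in kb from the start of each group of neighbouring forkhead genes (blue, other genes grey), with thick lines for gene extent and filled points for called genes. *Mthfsd* (0.62) and *Gmds* (0.83, which runs on past the right edge) lie below the fold threshold drawn at a log2 value of 2, and the forkhead genes lie above it.

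Promoters are shown for *Foxf2*, *Foxc1* and *Foxd1*, the most abundant called genes of their subfamilies that were matched, and for *Foxo1*, the FoxO gene with the most negative log2 fold change. Windows run from 250 bases before to 50 bases after the RefSeq transcription start (GRCm38.p6), and 27 of the 42 genes matched, with 32 windows. The windows are chr13:31625566-31625865 for *Foxf2*, chr13:31806396-31806695 for *Foxc1*, chr13:98353995-98354294 for *Foxd1* and chr3:52268087-52268386 for *Foxo1*, all on the plus strand, with the last 50 bases transcribed. Capitals mark the CCAAT box (CCAAT, or ATTGG on the other strand) and the GC box (GGGCGG, or CCGCCC on the other strand).
Foxf2: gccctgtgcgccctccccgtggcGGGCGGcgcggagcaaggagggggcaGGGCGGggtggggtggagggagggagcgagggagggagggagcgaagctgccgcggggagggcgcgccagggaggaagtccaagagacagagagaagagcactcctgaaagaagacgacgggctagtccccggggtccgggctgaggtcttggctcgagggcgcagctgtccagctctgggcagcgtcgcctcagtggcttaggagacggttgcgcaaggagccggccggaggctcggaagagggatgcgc
Foxc1: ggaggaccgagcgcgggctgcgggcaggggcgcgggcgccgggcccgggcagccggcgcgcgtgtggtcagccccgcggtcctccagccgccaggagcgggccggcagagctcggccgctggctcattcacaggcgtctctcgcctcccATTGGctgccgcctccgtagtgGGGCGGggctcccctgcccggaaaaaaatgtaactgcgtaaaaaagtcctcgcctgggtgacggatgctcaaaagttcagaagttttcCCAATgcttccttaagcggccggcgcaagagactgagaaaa
Foxd1: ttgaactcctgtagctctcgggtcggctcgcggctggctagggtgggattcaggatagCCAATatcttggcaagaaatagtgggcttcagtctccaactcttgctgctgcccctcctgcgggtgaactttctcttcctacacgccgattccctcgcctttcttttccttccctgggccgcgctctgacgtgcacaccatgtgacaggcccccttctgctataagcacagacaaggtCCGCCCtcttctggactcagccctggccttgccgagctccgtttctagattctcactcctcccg
Foxo1: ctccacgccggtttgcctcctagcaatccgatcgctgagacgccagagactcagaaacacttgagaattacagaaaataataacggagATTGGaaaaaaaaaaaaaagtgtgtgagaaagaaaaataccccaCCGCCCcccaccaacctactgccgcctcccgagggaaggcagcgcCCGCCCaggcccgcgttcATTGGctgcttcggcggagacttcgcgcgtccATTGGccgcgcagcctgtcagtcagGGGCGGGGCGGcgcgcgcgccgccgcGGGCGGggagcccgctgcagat
The *Foxf2* window held 2 GC boxes and no CCAAT box, and it also contains the start of 1700018A04Rik, which runs the other way from base 31625792. The *Foxc1* window held 2 CCAAT boxes and 1 GC box, the *Foxd1* window 1 of each, and the *Foxo1* window 3 CCAAT boxes and 5 GC boxes, some of them overlapping. Over the 32 windows of forkhead genes, 15 held a CCAAT box and 23 a GC box, where 37.4% and 35.7% of 32851 windows of all genes did. TATAAA was found in 3 windows of forkhead genes and in 13.6% of all windows, and the forkhead motif GTAAACA in 1 window (*Foxa1*) and in 3.65% of all windows, on either strand. Windows of forkhead genes had a median of 19 CpG sites and a GC content of 62.5%, and all windows had medians of 7 and 52.7%. A match describes the letters in the window only.

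Of the tested forkhead genes, 10 have all their exons in 1 block, and 8 of these were called higher in the embryo. Of the 18 with more exon blocks, 2 were called (*Foxf1* and *Foxf2*). Among all tested protein-coding genes 9.82% were called higher in the embryo, and among the 529 with 1 exon block 18% were.

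Of 19 markers of mesenchyme and pericytes, all tested, 9 were called higher in the embryo and 1 in the adult, with a median log2 fold change of 1.69. *Col3a1*, a fibrillar collagen and the most abundant of them in the embryos, was at 118 and 69.6 CPM in the adults and at 243, 760 and 1067 CPM in the embryos (2.87, edgeR adjusted p = 4.2e-04). *Tbx18* (5.97, edgeR adjusted p = 1.8e-04) and *Twist1* (4.26, edgeR adjusted p = 2.9e-05), factors of embryonic mesenchyme, had the largest differences. *Prrx1*, another mesenchymal factor, was called higher in the adult (−2.82, edgeR adjusted p = 6.5e-05), with a log2 fold change of −1.31 and no call after the length and GC correction. The pericyte gene *Rgs5* was lower in every embryo than in both adults (−0.98, edgeR adjusted p = 0.0142). Of the other pericyte genes, *Cspg4* was called higher in the embryo (2.5), and *Kcnj8* (1.39), *Pdgfrb* (1.09), *Notch3* (0.61) and *Abcc9* (0.17) were not called. None of the 19 was at 0 in a whole group.

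Summed over the list, mesenchyme markers were at 2121, 2429, 857, 1238, 1935, 1837 and 2642 CPM in embryos 1 to 7 and at 924 and 625 CPM in adults 1 and 2. Embryo 3 was thus below adult 1 in this sum, in which abundant genes such as collagens weigh most. Single markers went both ways. *Col3a1* (243 against 118 CPM) and *Twist1* (17.9 against 1.36 CPM) were higher in embryo 3 than in adult 1. *Col1a2* (151 against 352 CPM) and *Dcn* (38.7 against 156 CPM) were lower. The embryo-called forkhead genes summed to 68.8, 71.2, 34.5, 45.3, 46.7, 32.1 and 52.6 CPM per kb in embryos 1 to 7 and to 5.08 and 3.90 in the adults. They were selected for being higher in the embryo, so the gap between the groups in this sum follows from the selection. The part of the mesenchyme in the forkhead differences was not tested.

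Within the 7 embryos, the level of each of 9 called forkhead genes with a mean of at least 1 CPM was set against the summed mesenchyme markers. *Foxd1* had the closest relation (Pearson r = 0.87, exact permutation p = 0.0101, adjusted p = 0.0911 over the 9 relations, Spearman rho = 0.93, exact p = 0.00675, adjusted p = 0.0607). With embryos 3 and 7 left out, the samples farthest from the median, r was 0.77. *Foxf1* had r = 0.78 (exact p = 0.0413, adjusted p = 0.124, rho = 0.75) and r = 0.94 without those embryos. *Foxc1* also had r = 0.78 (exact p = 0.0357, adjusted p = 0.124, rho = 0.71), but r was 0.10 without them. *Foxl1* had r = 0.11 (exact p = 0.817) and *Foxs1* r = 0.17 (exact p = 0.726), where leaving out embryos 3 and 7 gave 0.71 and 0.46, and the other 4 genes had r from 0.25 (*Foxq1*) to 0.64 (*Foxf2*). Of these, *Foxd2* moved from 0.36 to 0.67 without embryos 3 and 7. No relation had an adjusted p below 0.05 in these two-sided exact permutation tests. Without embryos 1 and 4, r was 0.90 for *Foxd1*, 0.84 for *Foxc1*, 0.77 for *Foxc2* (0.53 with all 7 embryos) and 0.72 for *Foxf1*. In the same 5 embryos, r was 0.68 for *Foxf2*, 0.28 for *Foxq1*, 0.26 for *Foxd2*, −0.03 for *Foxl1* and 0.18 for *Foxs1*. Each value with 2 embryos left out rests on 5 libraries and was not tested.

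**Figure D4:**
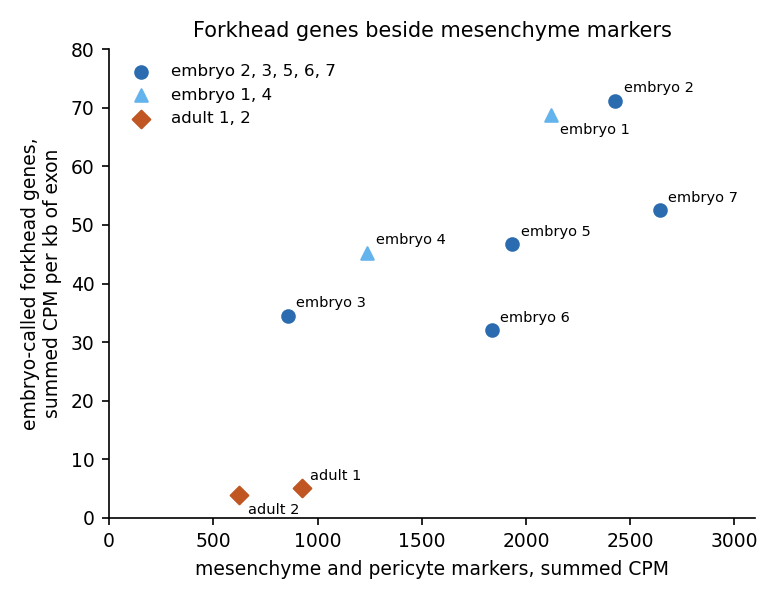
Summed level of the forkhead genes called higher in the embryo (CPM per kb of exon, vertical axis) against the summed level of mesenchyme and pericyte markers (CPM, horizontal axis), with 1 labelled point per library. Embryo 3 (857 CPM) lies between the adults (625 and 924 CPM) on the horizontal axis. The gap between the groups on the vertical axis comes from how its genes were selected.

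Of 11 endothelial markers, all tested, 3 were called higher in the embryo and none in the adult by edgeR or DESeq2, and 0 had an unadjusted p under 0.05 toward the adult. Without embryos 1 and 4, 5 were called higher in the embryo. The median log2 fold change of the 11 was 1.75. *Emcn*, the endothelial sialomucin, was at 17.9 and 13.9 CPM in the adults and at 31.8 to 110 CPM in the embryos (2.22, edgeR adjusted p = 8.8e-04). *Cldn5*, a tight junction gene, had a log2 fold change of 4.25 (edgeR adjusted p = 1.4e-04) and *Vwf* one of 3.43 (edgeR adjusted p = 0.00337). *Kdr* (−0.65) and *Plvap* (−0.33), with the highest mean CPM of the list in the adults, had negative log2 fold changes. Their libraries overlapped between the groups and they were not called. In CPM per kb, *Plvap* was the highest in the adults, and *Kdr* was below *Cdh5* and *Eng*. The list summed to 510, 964, 265, 389, 498, 401 and 466 CPM in embryos 1 to 7 and to 226 and 149 CPM in the adults, and no marker was at 0 in a whole group. The part of the endothelium in the differences of *Foxc1*, *Foxc2*, *Foxf2* and *Foxs1* was not tested.

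Of the FoxO genes, effectors of insulin signalling, *Foxo4* had its higher mean in the embryos and *Foxo1*, *Foxo3* and *Foxo6* had theirs in the adults, and none was called. *Foxo1* was at 90.4 and 83.0 CPM in the adults and at 10.6, 22.7 and 49.2 CPM in the embryos. Every embryo was below both adults, and embryo 1 was the highest embryo. The log2 fold change was −1.84 (SE 0.40, edgeR adjusted p = 0.0018), short of the fold threshold. It was −2.23 (adjusted p = 9.1e-05) without embryos 1 and 4 and −2.05 without embryo 1, both past the threshold, and −0.37 (adjusted p = 0.508) after the length and GC correction.

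*Foxo3* was at 64.5 and 58.7 CPM in the adults and at 15.5, 23.0 and 35.1 CPM in the embryos, without overlap. This gave a log2 fold change of −1.37 (SE 0.31, edgeR adjusted p = 0.00222), and −0.45 (adjusted p = 0.153) after the length and GC correction. *Foxo6*, a gene best known from brain whose product shuttles little between nucleus and cytoplasm, was at 20.7 and 12.5 CPM in the adults and at 4.09, 6.08 and 9.22 CPM in the embryos. The groups were apart here too, with a log2 fold change of −1.44 (SE 0.35, edgeR adjusted p = 0.00375) and one of −1.19 (adjusted p = 0.00533) after the correction. *Foxo4*, on the X chromosome, was at 27.5 and 34.0 CPM in the adults and at 33.0, 51.1 and 64.6 CPM in the embryos. Embryo 1 lay between the adults. At 0.73 (SE 0.29), the *Foxo4* log2 fold change had an edgeR adjusted p of 0.0483, which was 0.318 without adult 1 and 0.27 with library size alone.

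FoxO was the subfamily with the highest summed level in the adults, at 33.3 ± 2.04 CPM per kb (SD, n = 2), and stood at 22.9 ± 3.50 (SD, n = 7) in the embryos. *Foxo4* made up 63.6% of that level in the embryos (45.8% to 68.7%) and 22.7% and 30.6% in the adults. *Foxo1* made up 12.5% in the embryos (5.43% to 27.5%) and 30.0% and 30.1% in the adults. Embryo 1 had the lowest share of *Foxo4* and the highest of *Foxo1*. All embryos were above the adults in the share of *Foxo4* and below them in the share of *Foxo1*. These shares were not tested.

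Among 25 genes upstream of FoxO (receptors, phosphoinositide 3-kinase, Akt and SGK kinases, 14-3-3 proteins and nuclear factors), none was called higher in the embryo by edgeR or DESeq2, with 3 at an unadjusted p under 0.05, and 3 were called higher in the adult. The median log2 fold change was −1.07. The kinase gene *Sgk3* (−2.21, edgeR adjusted p = 4.4e-04) and the kinase regulatory subunit *Pik3r1* (−2.17, edgeR adjusted p = 9.2e-05) were among them, *Sgk3* not without adult 2 (−1.83). After the length and GC correction neither was called (−1.27 and −0.71), the genes with an unadjusted p under 0.05 numbered 5 toward the adult (15 before) and 6 toward the embryo, and the median was 0.03. The most abundant gene was *Ywhae*, a 14-3-3 protein that binds phosphorylated FoxO. The list summed to 1997 to 2296 CPM in the embryos and to 2341 and 2197 CPM in the adults.

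Of 22 tested FoxO target genes (25 in the list), 1 was called higher in the embryo and 6 in the adult, with a median of −1.23. *Tnfsf10*, a death ligand, was at 21.6 and 20.1 CPM in the adults and at 0.282 to 1.28 CPM in the embryos (−5.04, edgeR adjusted p = 1.7e-06). The ubiquitin ligase genes of muscle wasting went opposite ways, with *Fbxo32* higher in the adult (−4.76, edgeR adjusted p = 3.4e-06) and *Trim63* higher in the embryo (4.45, edgeR adjusted p = 3.9e-04). *Gadd45a*, a stress response gene, was called higher in the adult (−2.04, edgeR adjusted p = 3.5e-04) by a narrow margin. It was not called with unstranded counts (−1.97) or without embryo 1 (−1.88), embryo 3 (−1.94), embryo 6 (−1.97) or adult 2 (−1.93). After the length and GC correction 1 target was called higher in the embryo and 7 in the adult, with a median of −0.91. The most abundant target was *Txnip*, the list summed to 513 to 899 CPM in the embryos and to 1353 and 1077 CPM in the adults, and *G6pc* was at 0 everywhere. Most of these genes have other regulators, and the part of FoxO in their differences was not tested.

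FoxP proteins act as repressors in brain, lung, heart and lymphocytes. *Foxp4* was at 34.4 and 33.1 CPM in the adults and at 30.7, 83.1 and 97.4 CPM in the embryos. Embryo 6 lay below both adults and the other embryos above them. For *Foxp4* the log2 fold change was 1.09 (SE 0.38, edgeR adjusted p = 0.0276) and the gene was not called. *Foxp1* was at 43.9 and 48.3 CPM in the adults and at 33.8, 60.3 and 323 CPM in the embryos. Its highest values were 323 CPM in embryo 1 and 148 CPM in embryo 4, the libraries with low counted shares, whereas embryo 3 was below both adults and embryo 5 between them. The log2 fold change was 1.18 (SE 0.72, edgeR adjusted p = 0.183), and 0.21 (adjusted p = 0.553) without embryos 1 and 4. After the length and GC correction *Foxp1* was called, with 2.73 (adjusted p = 0.02).

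*Foxp2*, known for its role in vocal learning, was at 29.6 and 35.5 CPM in the adults and at 5.16, 7.32 and 39.3 CPM in the embryos. Embryo 1 alone exceeded the adults, and embryo 4 was next at 15.4 CPM. The log2 fold change was −1.32 (SE 0.58, edgeR adjusted p = 0.0677), −2.12 (adjusted p = 1.1e-04) without embryos 1 and 4, which passed the threshold, and 0.27 (adjusted p = 0.743) after the length and GC correction. *Foxp3*, which defines regulatory T cells, had 1 count over the embryos and 3 over the adults. Of 9 T cell markers, 2 were tested and neither was called by edgeR or DESeq2, with 1 at an unadjusted p under 0.05 (toward the embryo) and a median of 0.46 (0.03 after the length and GC correction). Without embryos 1 and 4, 3 were tested, 1 was called higher in the adult, and the median was −0.35. *Lck*, the most abundant, was at 7.73 and 6.38 CPM in the adults and at 16.2 to 36.4 CPM in the embryos, *Cd3e* was at 0 to 0.128 CPM, and *Ctla4* was at 0 everywhere. The list summed to 17.0 to 36.6 CPM in the embryos, nearly all of it *Lck*. In the adults it summed to 8.92 and 7.76 CPM, most of it *Lck*. *Cd4*, the other tested marker, had a log2 fold change of −0.81 (edgeR adjusted p = 0.559), and *Il2ra*, not tested, was at 0.388 and 0.506 CPM in the adults and at 0 in 6 of the 7 embryos. In summed CPM per kb, FoxP was at 23.0 ± 11.1 (SD, n = 7) in the embryos and 12.2 ± 0.306 (SD, n = 2) in the adults, with embryo 6 (11.8) below both adults, embryo 1 (45.7) the highest and embryo 4 (26.9) next.

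FoxK proteins are broadly expressed factors that act on autophagy and glycolysis genes. *Foxk2* was at 91.4 and 75.0 CPM in the adults and at 42.3, 78.2 and 87.4 CPM in the embryos. The groups overlapped, and embryos 1 and 4 were the lowest. The *Foxk2* log2 fold change was −0.23 (SE 0.29, edgeR adjusted p = 0.527), with 0.27 after the length and GC correction and −0.02 without embryos 1 and 4. *Foxk1* was at 42.4 and 36.4 CPM in the adults and at 12.8, 17.1 and 32.2 CPM in the embryos, without overlap. Its log2 fold change was −0.91 (SE 0.37, edgeR adjusted p = 0.0524), and 0.09 after the length and GC correction. *Foxk2* supplied 83.0% of the FoxK level in the embryos, against 75.7% and 74.8% in the adults.

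In FoxN, *Foxn2* was at 20.4 and 18.1 CPM in the adults and at 3.37, 4.80 and 7.35 CPM in the embryos. All embryos were far below both adults. For *Foxn2* this gave −1.89 (SE 0.33, edgeR adjusted p = 3.3e-04), just short of the fold threshold, and −0.59 (adjusted p = 0.114) after the length and GC correction. *Foxn3*, a checkpoint gene, was at 41.4 and 39.6 CPM in the adults and at 15.3, 17.5 and 59.6 CPM in the embryos. Embryos 1 (59.6 CPM) and 4 (46.0 CPM) were above both adults and the other 5 embryos below them. With all libraries the log2 fold change was −0.55 (SE 0.48, edgeR adjusted p = 0.348), −1.16 (adjusted p = 0.00231) without embryos 1 and 4, and 1.01 (adjusted p = 0.148) after the length and GC correction. *Foxn1*, the thymus epithelium gene mutated in nude mice, and *Foxn4*, a gene of retinal progenitors, were at no more than 0.293 CPM in any library and were not tested. FoxN summed to 3.15 ± 1.54 CPM per kb (SD, n = 7) in the embryos, with 5.73 and 4.90 in embryos 1 and 4 and 1.97 to 3.06 in the others, and to 6.20 ± 0.343 (SD, n = 2) in the adults.

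In FoxJ, *Foxj3* was at 62.7 and 51.1 CPM in the adults and at 5.93, 13.7 and 25.7 CPM in the embryos. Embryo 4 was the lowest, and no embryo came near the adults. The log2 fold change was −1.92 (SE 0.36, edgeR adjusted p = 6.4e-04), −2.10 (adjusted p = 2.2e-04) without embryo 7 and −2.07 (adjusted p = 0.00539) without adult 2, both past the threshold, and −1.12 (adjusted p = 0.00827) after the length and GC correction. *Foxj2* was at 27.7 and 26.2 CPM in the adults and at 6.04, 10.5 and 18.4 CPM in the embryos, without overlap (−1.24, SE 0.35, edgeR adjusted p = 0.00856). *Foxj1*, the switch of motile cilium formation, was at 11.2 and 8.97 CPM in the adults and at 2.26, 3.62 and 10.2 CPM in the embryos. Embryo 2 lay between the adults and the other embryos below them, with a log2 fold change of −1.11 (SE 0.51, edgeR adjusted p = 0.0822). FoxJ summed to 5.27 ± 1.62 CPM per kb (SD, n = 7) in the embryos and 14.1 ± 1.55 (SD, n = 2) in the adults, and *Foxj1* made up 32.6% of it in the embryos, against 28.2% and 26.4% in the adults.

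Of 28 tested genes of the motile cilium programme (30 in the list), 1 was called higher in the embryo and 9 in the adult, with a median of −1.69, and −1.72 after the length and GC correction. The axonemal dynein genes *Dnah5* and *Dnah9* had the most negative values. *Dnah5* was at 4.22 and 3.43 CPM in the adults and at 0 to 0.101 CPM in the embryos (−6.58, edgeR adjusted p = 3.1e-05), and *Dnah9* at 9.24 and 39.0 CPM and 0 to 0.642 CPM (−5.83, edgeR adjusted p = 1.7e-05). *Spag17*, a gene of the central pair of the axoneme, was called higher in the embryo (3.96, edgeR adjusted p = 0.0169), and not without adult 1 (2.94, adjusted p = 0.126). *Dnaic2*, another dynein gene, was called (−2.10, edgeR adjusted p = 0.0447), but with an adjusted p of 0.133 without adult 1 and of 0.19 without adult 2. Nor was it called without embryo 3, 5, 6 or 7 (adjusted p = 0.0756, 0.0713, 0.0716 and 0.0655) or without embryo 4 (−1.84). *Rsph9*, a radial spoke gene and the most abundant of the list in the embryos, was not called. *Rfx3*, with the highest CPM in the adults but not the highest CPM per kb, was called higher there (−2.27). The list summed to 111 to 175 CPM in the embryos and to 215 and 280 CPM in the adults, and *Sntn* was at 0 in every embryo. The part of *Foxj1* in these differences was not tested.

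**Figure D5:**
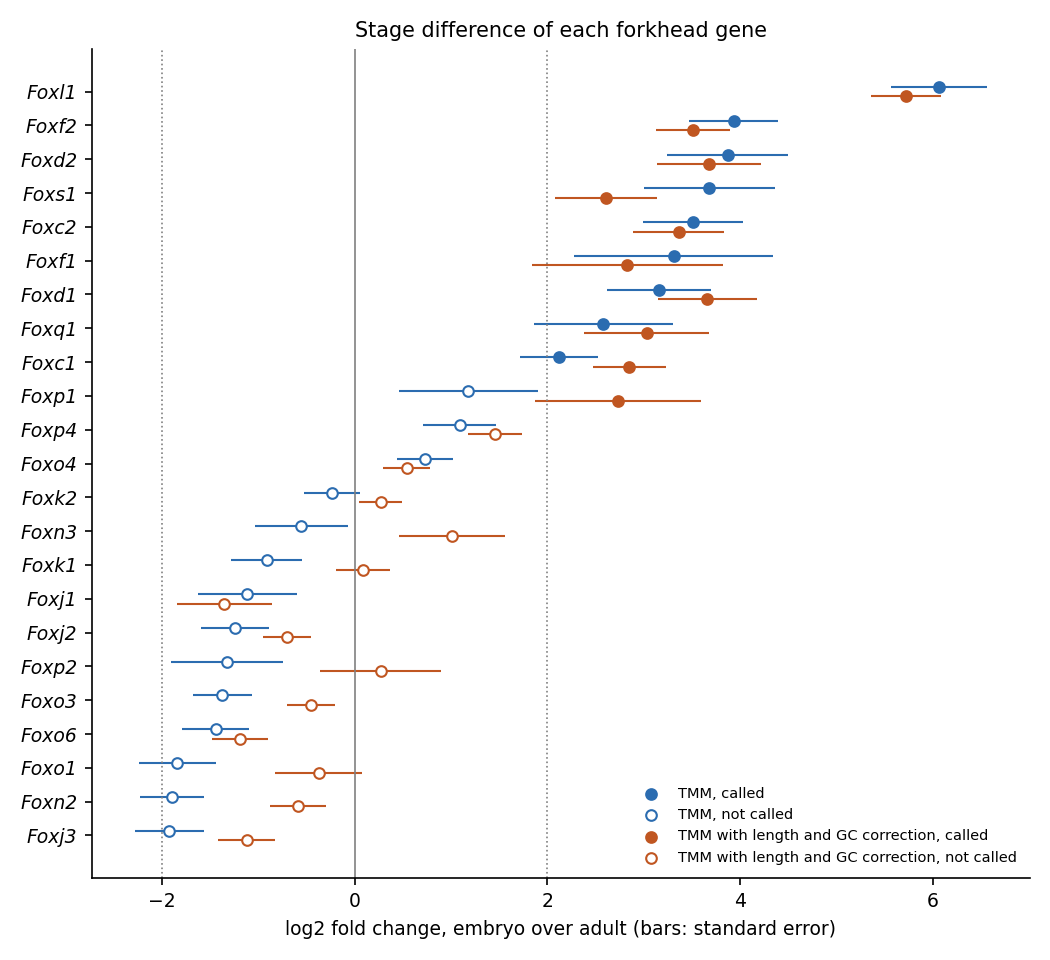
Log2 fold change (embryo over adult, horizontal axis, bars give the standard error) of the forkhead genes with a mean of at least 1 CPM, with TMM scaling (blue) and with a further correction for transcript length and GC content (orange), filled where called. The genes from *Foxl1* (6.06) to *Foxc1* (2.12) are called under both, and *Foxk1*, *Foxk2*, *Foxn3* and *Foxp2* change sign after the correction.

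Across all tested genes, the log2 fold change and the transcript length had a Spearman rho of −0.39, and of 0.06 after the correction. Within the embryos, the log2 ratio of each to the median of the others had a rho with transcript length of −0.10 and −0.22 in embryos 1 and 4, and of −0.23 (embryo 6) to 0.53 (embryo 7) in the rest. The uncalled forkhead genes with longer transcripts, such as *Foxo1*, *Foxn2* and *Foxn3*, moved toward the embryo with it. After it the median of the 28 forkhead genes was 0.78, beside 0.04 for all tested genes.

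The remaining forkhead genes were at trace levels. *Foxa1*, a pioneer factor of endoderm, had 64 counts over the embryos, 39 of them in embryo 2, and 3 over the adults (2.94, SE 1.81, edgeR adjusted p = 0.188). *Foxa2* had 1 count in all, and *Foxa3* 8 over the embryos and 2 over the adults.

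*Foxb1*, a gene of the caudal hypothalamus, had 21 counts, 16 of them in embryo 2, and none in the adults. *Foxe1*, a thyroid and palate gene, was at 0.364 and 0.0562 CPM in the adults and at 0 to 0.399 CPM in the embryos (edgeR adjusted p = 0.982). *Foxe3*, a lens gene, had 8 counts, all in embryo 4. *Foxh1*, a partner of Smad proteins in Nodal signalling, had 15 counts over embryos 1 and 7 and 4 over the adults. *Foxi1*, known from ionocytes, had 10 counts, all in embryos, and *Foxi2* had 4 in each adult and none in the embryos. When no filter on counts was applied, *Foxi2* was the 1 forkhead gene of 39 tested that was called higher in the adult. In that fit 11.7% of 31896 tested genes were called higher in the adult. *Foxr2* was at 0.339 and 0.366 CPM in the adults and at 0 to 0.642 CPM in the embryos (edgeR adjusted p = 0.55). None of the tested genes of this group passed the test, and 3 counts corresponded to 0.0727 to 0.220 CPM in the 9 libraries.

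Since *Foxb1* and *Foxd1* are also known from the forebrain, markers of neural and hypothalamic tissue were counted in the same way. Of 13 tested (16 in the list), 6 were called higher in the embryo and 2 in the adult, with a median of 0.64. The hypothalamic factor gene *Otp* was at 0 and 0.0281 CPM in the adults and at 1.54 to 22.1 CPM in the embryos (8.44, edgeR adjusted p = 7.4e-04). *Dlx2* had no count in the adults and 0 to 5.24 CPM in the embryos (edgeR adjusted p = 0.00378). The more abundant *Rax* (4.83) and *Nkx2-1* (4.04) were also called higher in the embryo. *Rax* was at 1.48 and 2.11 CPM in the adults and at 29.2 to 92.8 CPM in the embryos. *Nkx2-1* was at 1.09 and 1.72 CPM in the adults and at 13.0 to 41.6 CPM in the embryos. The astrocyte gene *Gfap* (−3.99, edgeR adjusted p = 7.5e-05) and the glutamate transporter gene *Slc17a6* (−6.05, edgeR adjusted p = 2.9e-05) were higher in the adult. The list summed to 138, 392, 186, 108, 114, 216 and 119 CPM in embryos 1 to 7 and to 155 and 123 CPM in the adults, with *Tubb3* the most abundant and *Neurod6* at 0 everywhere. Embryo 2, which had the highest sum, also held most counts of *Foxa1* and *Foxb1*. The part of this tissue in the forkhead values was not tested.

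Of 20 genes for cofactors of forkhead proteins (Groucho and CtBP corepressors, histone deacetylases, Smads and others), none was called by edgeR or DESeq2, with 5 at an unadjusted p under 0.05 toward the embryo and 6 toward the adult. The median was 0.04, and 0.54 after the length and GC correction. The Groucho corepressor gene *Tle1* was at 33.5 and 30.9 CPM in the adults and at 53.4, 61.1 and 86.2 CPM in the embryos (1.03, edgeR adjusted p = 0.00708). *Tle4* was at 84.9 and 80.9 CPM in the adults and at 21.5, 27.3 and 44.7 CPM in the embryos (−1.46, edgeR adjusted p = 6.9e-04). Both genes were apart between the groups in opposite directions, and were named after their values were seen. *Aes* was the most abundant gene of this list, which summed to 1708 to 2404 CPM in the embryos and to 1710 and 1621 CPM in the adults.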

How the data were processed

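The deposited files hold raw counts of read pairs per gene, made by the authors with Trimmomatic 0.39 and STAR 2.7.5b (versions from the submitters' processing notes) on mm10 with Ensembl 96 genes. Column 4, the strand that fits the directional kit, was used as deposited. Lines that name no gene (unmapped, multimapping, outside genes, ambiguous) were left out, which leaves the counted shares given in the report. All 55450 gene identifiers were found in GENCODE M21.

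From the counts, edgeR 4.0.16 (R 4.3.3, limma 3.58.1) fitted a quasi-likelihood model of stage over all 9 libraries with TMM scaling, after the filter of the study's methods (mean count 5 or more), which used DESeq2. Genes were called at a Benjamini-Hochberg adjusted p below 0.05 and a fold change above 4. The standard error is the absolute log2 fold change divided by the square root of F. Each called forkhead gene with a mean of at least 1 CPM in its higher group, and each uncalled one with at least 10 CPM in either, is given in full. From each list up to 4 called genes are named, the 2 highest and 2 lowest. Other names were chosen after their values were seen.

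Alternatives were other scaling (DESeq2 size factors, library size alone), the DESeq2 1.42.0 Wald test, other filters, unstranded counts, splines on transcript length and GC content (4 degrees of freedom, from genes with mean counts of 50 or more), other call rules, a replicate block and leaving out libraries. With an adult left out, the lone adult is assumed to vary like the embryos. The steps were tested on simulated data. Tables and tests used Python 3.11.15, pandas 2.3.3, numpy 2.4.6 and scipy 1.17.1, and figures matplotlib 3.10.9. The members and lists were chosen with earlier results of these data known. Some genes of the family and of the lists are not reported here.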

Additional observations from a re-analysis of the deposited data

Results flagged for a closer look

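Among 34 sets of 7 embryo values (forkhead genes, subfamily sums and the counted share), 2 had an embryo whose gap to the nearest other embryo was large for the range of the group. Chance gives about 1 in 20 such sets. For *Foxp1* the gap of embryo 1 (323 CPM, next 148 CPM) was 0.604 of the range. For *Foxp2* the gap of embryo 1 (39.3 CPM, next 15.4 CPM) was 0.700 of the range. Embryo 1 is the library with the lowest counted share. The part of RNA quality or of alignment in these values was not tested.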

How the results depend on the processing

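Of 432 log2 fold changes of 24 forkhead genes under 18 alternatives, 406 kept their direction and whether they were called (adjusted p and fold together), 12 lost a call, 10 gained one and 4 changed sign. An adjusted p alone could still cross 0.05 among the 406, as for *Foxo4* and *Foxn3*. The 4 that changed sign were uncalled genes under the length and GC correction, *Foxk1* (0.09), *Foxk2* (0.27), *Foxn3* (1.01) and *Foxp2* (0.27). *Foxc2*, *Foxd1*, *Foxd2*, *Foxf2*, *Foxl1* and *Foxs1* were called under every alternative run on fold changes. Of 468 values of 26 genes of the other lists, 445 were unchanged in this sense and 23 lost a call.

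The count of all called genes went from 5001 to 9948 with no fold threshold, to 8960 with a fold of 2 and to 1744 with glmTreat against a fold of 4, and ranged from 3683 to 5290 with 1 library left out. The forkhead count toward the embryo was 6 under glmTreat. It was 9 to 10 with 1 embryo left out, where 10.9% to 12.2% of all tested genes were called toward the embryo. The forkhead count toward the adult (0) was 6 with no fold threshold (27.4% of all tested genes) and 6 with a fold of 2. It was 4 with library size alone (16.8% of all tested genes), with *Foxj3*, *Foxn2* and *Foxo1* among them. Without embryos 1 and 4 it was 3 (16.2%), and with no filter on counts 1 (*Foxi2*, 11.7%). With 1 embryo left out it was 0 to 1 (13.5% to 15.3%). Shares by direction were not computed for a fold of 2 or for glmTreat. Among the adult calls with 1 embryo left out were *Foxo1* (without embryo 1) and *Foxj3* (without embryo 7). Apart from the change of rule or of libraries itself, the cause was not tested.

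With a replicate block on the 4 libraries that share a number, 4151 of 19897 tested genes were called (8.56% toward the embryo, 12.3% toward the adult). Among them were 8 forkhead genes toward the embryo and 1 (*Foxn2*) toward the adult. *Foxd3* (edgeR adjusted p = 0.169) and *Foxq1* (3.19, edgeR adjusted p = 0.0568) lost their calls under the block. The numbers name different animals, so the samples are not paired. Over 14079 genes the deviations of embryo 1 and adult 1 had a correlation of 0.08 and those of embryo 2 and adult 2 of 0.03. With 2 adults, their deviations from the adult mean mirror each other, so these correlations cannot decide on pairing.

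With 2 adults, each call rests on a spread taken mostly from the embryos. Genes at a few counts per library cannot be ranked at this depth.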
